A study of Mus musculus with 2 samples.

Results

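The genes described here encode integrins and the proteins of focal adhesions. They were taken as every gene whose single annotated symbol names an alpha or beta integrin subunit (Itga or Itgb with a number, or Itgav), together with the plaque proteins Vcl, Tln1, Pxn, Zyx, Ilk, Parva, Lims1, Fermt2, Bcar1, Tes and Tns1 and the coreceptors Cd44 and Sdc4. Of 18193 genes with 1 symbol on the array, 34 were members, of which 21 were integrin subunits and 13 were plaque proteins or coreceptors. Ptk2, which encodes focal adhesion kinase, belongs to the same set but is not analysed here, and 3 genes of integrin binding proteins were left out.

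RNA was compared between mouse embryo fibroblasts (MEFs) of 2 genotypes, Ebp1 knock out and wild type, both derived from 12.5 day embryos and harvested at passage 2 in medium with serum. The knock out mice carry a retroviral gene trap in an intron of Pa2g4, the gene of the ErbB3 binding protein Ebp1, and per the study's methods the line came from a single ES cell clone and was kept on a mixed C57BL/6 and 129SvEvBrd background. There was 1 array per genotype. The comparison therefore has no replicate check, no error can be given for a signal or a ratio, and genotype cannot be told apart from the embryos and the culture of each array. Each value below is a MAS5 signal in intensity units, scaled by the authors to the same target on both arrays. A log2 ratio is the signal in knock out MEFs divided by that in wild type MEFs, as log2, and a gene with several probe sets is given by the 1 with the highest mean log2 signal unless others are named.

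Integrins are heterodimers of an alpha and a beta subunit that bind matrix proteins outside the cell. Their short tails recruit talin and kindlin, which activate the receptor, and then a plaque of adaptor and signaling proteins that ties the receptor to actin. In fibroblasts this machinery holds the cell to fibronectin and collagen, senses tension and carries adhesion signals that also bear on growth.

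Pa2g4 itself had a signal of 1178 in knock out and 1835 in wild type MEFs (log2 ratio -0.64). All 5 of its probe sets were lower in knock out MEFs, from -0.90 to -0.33. The dimmest of them gave only 34.7 in knock out and 60.8 in wild type MEFs. The targeted gene was thus lower on the array labelled knock out, but its main probe set kept a signal of 1178 there. By PCR and Western blot, the study reports no Ebp1 transcript and no Ebp1 protein in knock out MEFs. This difference between the array and the study's report was not tested. Where the probes of Pa2g4 lie relative to the gene trap was not analysed here, and every direction below is that of the array labelled knock out. Of the probe sets that are not controls, 57.1% on the knock out and 57.9% on the wild type array were under 100, a level treated here as low. Signals of the 9 hybridization spike-ins stood 1.31 times above the wild type array on the knock out array. The 3' over 5' signal of the control transcripts was 1.21 on the knock out and 1.29 on the wild type array for Actb, and 0.800 on the knock out and 0.949 on the wild type array for Gapdh. All 8 fibroblast markers listed (such as Col1a1, Thy1 and Vim) reached 500. Their log2 ratios ran from -0.67 for Pdgfrb to 0.39 for S100a4, with 5 above and 3 below 0. None of 9 leukocyte markers reached 500 (summed signal 912 in knock out and 862 in wild type MEFs). Ptprc, Itgam, Itgal, Itgax, Itgb2 and Cd68 were under 100 on both arrays. Over 100 on both were Csf1r (385 in knock out and 366 in wild type MEFs), Adgre1 (154 in knock out and 146 in wild type MEFs) and Cd14 (133 in knock out and 109 in wild type MEFs). None of 5 endothelial markers reached 500 either (summed signal 373 in knock out and 381 in wild type MEFs). Of 7 epithelial markers, Epcam reached 500, on the knock out array (1350.5, against 174 on the wild type array), and their summed signal was 1896 in knock out and 495 in wild type MEFs. The integrin subunit of this list, Itgb4, was 16.0 in knock out and 22.7 in wild type MEFs, and Krt8, Krt18 and Cdh1 were also under 100 on both arrays. Krt19 had 197 in knock out and 88.0 in wild type MEFs (at least 1.97-fold higher) and Cldn4 had 121 in knock out and 36.2 in wild type MEFs (at least 1.21-fold higher). The Epcam probe set with 1350.5 has the suffix _x_at, which marks probes able to match other sequences. The other probe set of Epcam gave 4.07 in knock out and 5.81 in wild type MEFs. Of 6 markers of smooth and skeletal muscle, 2 reached 500. They were Acta2 (9902 in knock out and 8283 in wild type MEFs) and Cnn1 (1977 in knock out and 1092 in wild type MEFs). The summed signal of the 6 was 12346.5 in knock out and 9811.9 in wild type MEFs, and Itga7 of this list was lower in knock out MEFs. The part of these other cell types in the values below was not tested.

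Of the 34 members, 19 reached 500 on at least 1 array, all of which did so on both, and none of the 19 was over 2-fold apart between knock out and wild type MEFs. Across all 5014 genes that reached 500, 91 (1.81%) were over 2-fold apart, 38 of them (0.758%) higher and 53 (1.06%) lower in knock out MEFs. The split was 28 higher and 70 lower after median centring and 17 higher and 228 lower after spike-in scaling. With so low a background, a count of 0 among 19 is near what all genes show. The 19 log2 ratios ran from -0.61 for Itga8 to 0.42 for Itga3, with a median of 0.03, against -0.05 for all genes that reached 500. Their spread across genes was also like that of all genes, with a standard deviation of 0.32 as compared with 0.38. At a threshold of 1.5-fold, 1 member (Itga8, lower) was apart, where 5.11% of all genes were lower by that much.

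**Figure D1:**
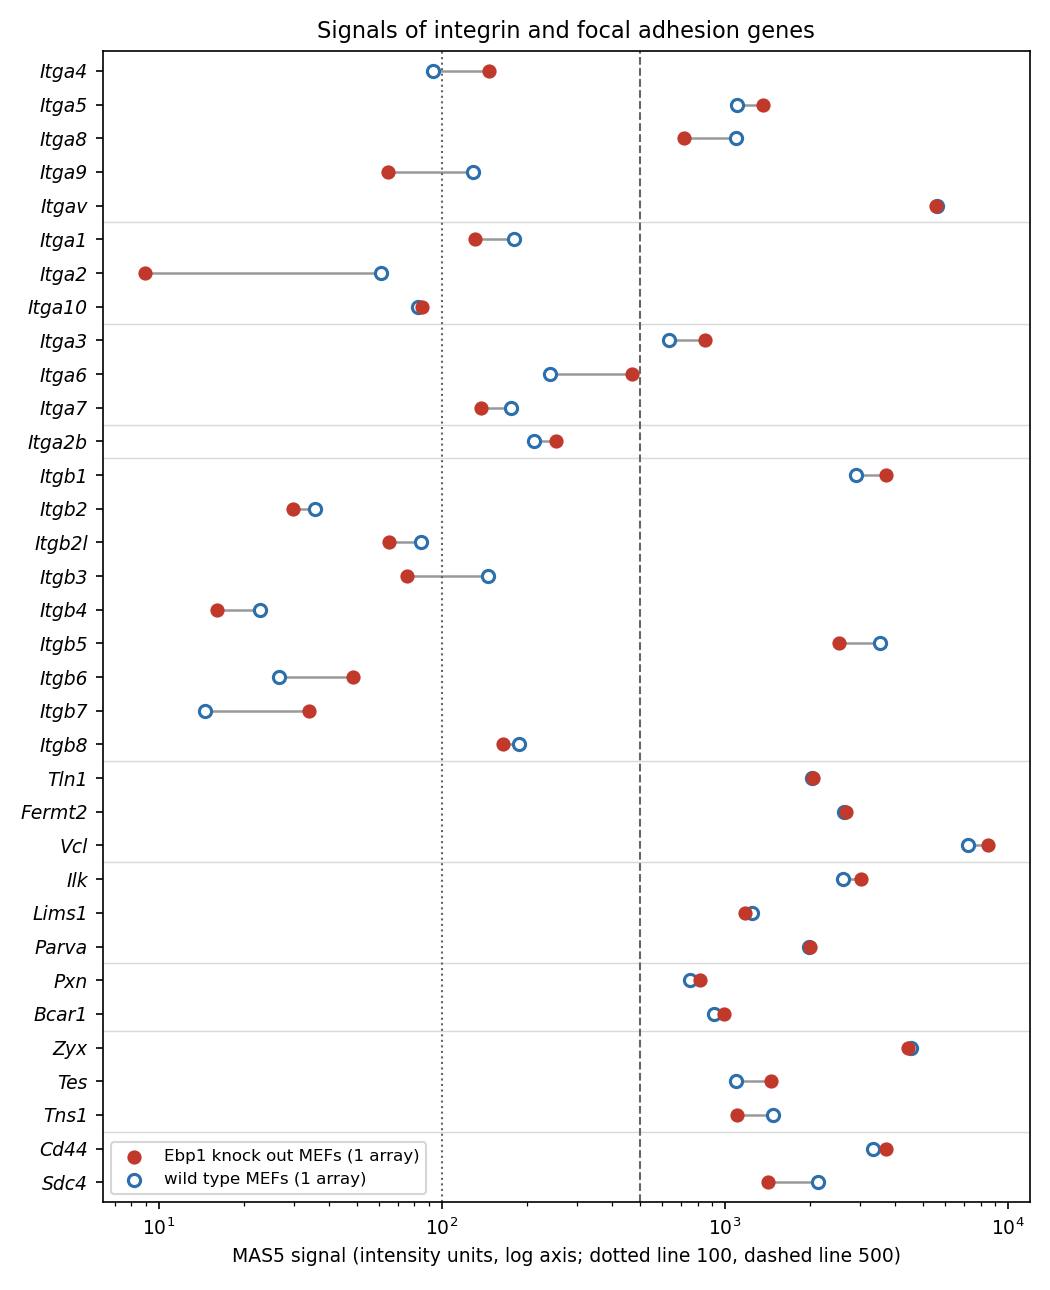
MAS5 signals (horizontal, log axis) of the 34 genes, grouped by role from top to bottom, in Ebp1 knock out MEFs (filled) and wild type MEFs (open), with 1 array for each. The genes right of the dashed line at 500 reach it on both arrays, and the widest gap, that of Itga2 (8.93 in knock out and 61.0 in wild type MEFs), lies left of the dotted line at 100, where signals are low.

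Under the deposited scaling 12 of the 19 genes had a higher and 7 a lower signal in knock out MEFs, which is 63.2% higher, against 42.2% of all genes that reached 500. This balance depended on the scaling of the arrays. When the arrays were scaled to the spike-ins, every log2 ratio moved down by 0.39 and 10 of the 12 turned negative, leaving Itga3 (0.03) and Tes (0.01) above 0. When the arrays were centred on their medians the shift was smaller and Fermt2, Parva and Tln1 turned negative. On their main probe sets, the 7 lower genes, Itga8, Sdc4, Itgb5, Tns1, Lims1, Zyx and Itgav, were lower under each of the 4 other scalings tried. Under the deposited scaling, at least 1 other probe set over 100 was higher in knock out MEFs for each of Itga8, Tns1, Lims1 and Itgav. The position of the members relative to other genes is not altered by a common shift, and 14 of the 19 lay above the median of all genes under the deposited scaling, and so also under median centring and spike-in scaling. It was 12 of the 19 under quantile normalization and under loess, which do not shift all genes alike.

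**Figure D2:**
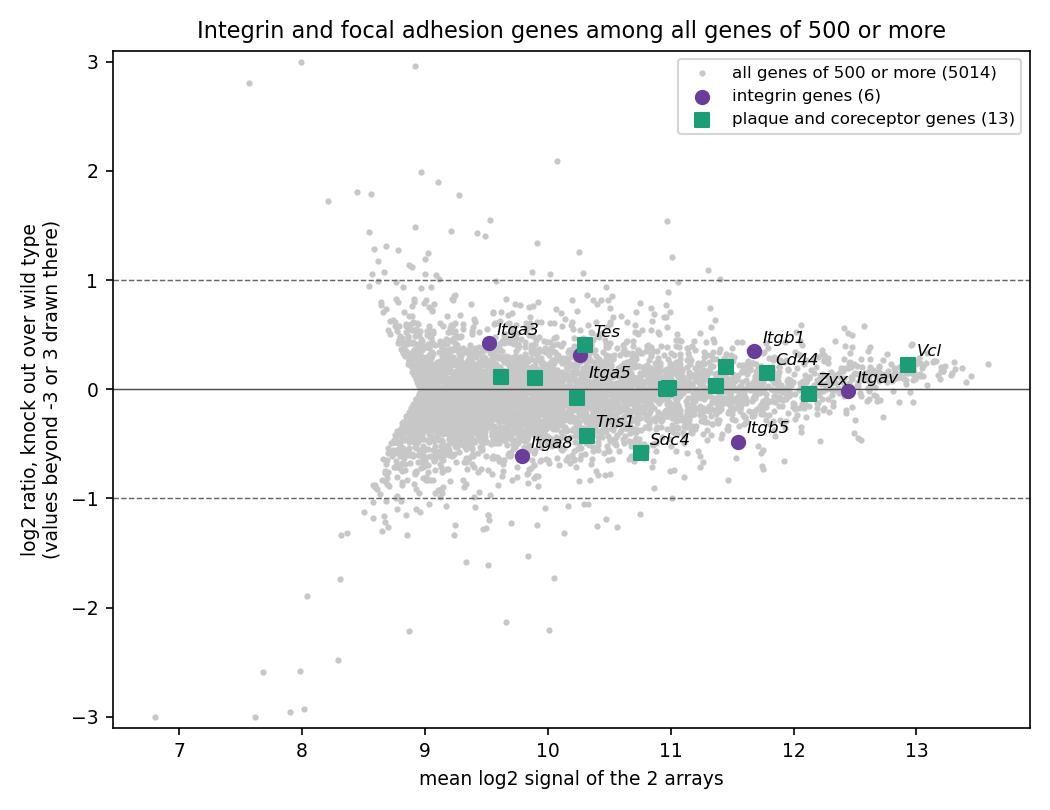
Log2 of the ratio between knock out and wild type signal (vertical, positive where knock out is higher) against the mean log2 signal of the 2 arrays (horizontal) for the 5014 genes that reached 500 (grey), with the 6 integrin genes (purple) and the 13 plaque and coreceptor genes (green) marked. All 19 lie between the dashed 2-fold lines under the deposited scaling. Under this scaling the median distance from 0 is 0.38 for the 6 integrin genes and 0.11 for the 13 plaque and coreceptor genes. It is 0.19 for all 5014 genes. A common shift of the arrays changes such distances, so their order is given for this scaling only.

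Among the beta subunits, Itgb1 and Itgb5 went in opposite directions under the deposited scaling. Itgb1 encodes the subunit shared by most integrins of fibroblasts, including the receptors of collagen, laminin and fibronectin, and gave 3705 in knock out and 2909.7 in wild type MEFs (log2 ratio 0.35, or -0.04 after spike-in scaling). Itgb5, which pairs with the alpha v subunit in a vitronectin receptor, had 2531 in knock out and 3532 in wild type MEFs (-0.48, and -0.87 after spike-in scaling). The log2 ratio of Itgb1 was 0.83 above that of Itgb5, a gap that a common scaling of the arrays leaves as it is. The 4 probe sets of Itgb5 all reached 500 and all were lower in knock out MEFs (log2 ratios between -0.65 and -0.45). The 3 probe sets of Itgb1 that reached 500 were all higher. Its second gave 3833 in knock out and 2700.4 in wild type MEFs (0.51). Another, with the suffix _x_at that marks probes able to match other sequences, gave 618 in knock out and 142 in wild type MEFs (2.12). The main probe set of Itgb5 also has this suffix, as has the one with 1018 in knock out and 1458 in wild type MEFs (-0.52). The probe sets of Itgb5 without the suffix gave -0.65 and -0.45. The 3 other probe sets of Itgb1 were under 100 on both arrays.

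The other beta subunits were dim. Itgb3, the beta subunit of the platelet fibrinogen receptor and of another vitronectin receptor, had 75.2 in knock out and 146 in wild type MEFs, at least 1.46-fold lower with the knock out signal set to 100. Itgb8, whose alpha v dimer activates latent TGF-beta, had 164 in knock out and 187 in wild type MEFs (-0.19). Itgb2 and Itgb7 of leukocytes, Itgb4 and Itgb6 of epithelia and Itgb2l were under 100 on both arrays.

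The 250 bases before the start of the gene are shown for Itgb1 and Itgb5, the beta subunits that differed in direction under the deposited scaling. They are as given by RefSeq for GRCm38.p6 and written 5' to 3' on the strand of the gene. Capitals mark each match to the GC box, searched as GGGCGG on either strand (CCGCCC on the strand shown).
Itgb1 (chr8:128685404-128685653, plus strand): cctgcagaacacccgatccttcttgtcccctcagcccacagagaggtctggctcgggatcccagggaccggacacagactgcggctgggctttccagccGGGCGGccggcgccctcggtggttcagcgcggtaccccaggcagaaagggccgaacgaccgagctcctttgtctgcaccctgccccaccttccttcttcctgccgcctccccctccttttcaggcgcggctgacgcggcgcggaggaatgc
Itgb5 (chr16:33829415-33829664, plus strand): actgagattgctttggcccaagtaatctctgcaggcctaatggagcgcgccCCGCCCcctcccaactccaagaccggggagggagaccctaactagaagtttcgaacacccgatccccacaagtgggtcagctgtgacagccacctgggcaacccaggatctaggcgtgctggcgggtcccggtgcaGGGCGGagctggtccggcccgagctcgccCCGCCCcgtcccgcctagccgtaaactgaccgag
The window of Itgb1 holds 1 match, 151 bases before the start, and that of Itgb5 holds 3, at 199, 63 and 34 bases. The same motif was found in 32.7% of all 32851 windows of this length and in at least 1 window of 14 of the 27 members that have one. The former is a share of windows and the latter a count of genes, with 33 windows, so they are not like for like. A match is common among all windows and does not by itself set these genes apart.

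Of the alpha subunits, 4 reached 500. Under the deposited scaling Itga5 and Itga8, both receptors of RGD sites in fibronectin, differed in direction. Itga5 forms the main fibronectin receptor with beta 1 and gave 1368 in knock out and 1103 in wild type MEFs (0.31, or -0.08 after spike-in scaling). Its other probe sets over 100 were also higher, with 378 in knock out and 166 in wild type MEFs (1.18) and with 131 in knock out and 86.6 in wild type MEFs (at least 1.31-fold). Itga8, which also binds nephronectin in the developing kidney, had 716 in knock out and 1095 in wild type MEFs (-0.61), the largest difference of the 19 genes. It was the only one of the 19 to pass 2-fold after spike-in scaling (-1.01). A dimmer probe set of Itga8 went the other way, with 154 in knock out and 111 in wild type MEFs (0.47). Itgav, the alpha subunit that Itgb5 pairs with, had 5543 in knock out and 5614 in wild type MEFs (-0.02), and its next probe set had 203 in knock out and 183 in wild type MEFs (0.15). Its ratio thus lay nearer to 0 than that of Itgb5.

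Itga3, an alpha subunit of laminin receptors, had a signal of 848 in knock out and 634 in wild type MEFs (0.42, and 0.03 after spike-in scaling). Another probe set gave 126 in knock out and 46.4 in wild type MEFs, at least 1.26-fold higher. Itga6, a second laminin receptor subunit, fell short of 500 on both arrays, with 471 in knock out and 242 in wild type MEFs (0.96), and its other probe set gave 153 in knock out and 91.7 in wild type MEFs. Itga7, the laminin receptor subunit known from muscle, had 138 in knock out and 176 in wild type MEFs (-0.35). The laminin receptor subunits were therefore not on 1 side of 0.

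The remaining alpha subunits were dim. Itga4, which pairs with beta 1 to bind fibronectin and Vcam1, had 147 in knock out and 92.9 in wild type MEFs, at least 1.47-fold higher with the low signal set to 100. Itga9, a relative of Itga4 that binds tenascin, had 64.8 in knock out and 129 in wild type MEFs, at least 1.29-fold lower. The collagen receptor subunit Itga1 had 131 in knock out and 180.4 in wild type MEFs (-0.46). Itga2b, the alpha subunit of the platelet fibrinogen receptor, had 253 in knock out and 211 in wild type MEFs (0.26). Its companion markers of platelets in the list, Pf4 and Gp9, had 108 and 7.20 in knock out MEFs, against 124 and 29.2 in wild type MEFs. The other collagen receptor subunits, Itga2 and Itga10, were under 100 on both arrays. Itga11 is not analysed here. In all, 6 integrin subunits reached 500, 8 lay between 100 and 500 on their higher array and 7 were under 100, whereas all 13 plaque and coreceptor genes reached 500.

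The proteins that link integrin tails to actin are talin, kindlin and vinculin. Tln1 encodes talin-1, which opens the integrin by binding the beta tail, and its signal was 2038 in knock out and 2022 in wild type MEFs (0.01). Its other probe sets gave 0.06 and -0.15. Fermt2 encodes kindlin-2, the partner of talin in integrin activation, and had 2679 in knock out and 2623 in wild type MEFs (0.03). Both ratios were near 0 under the deposited scaling. The other probe sets of Fermt2 were both higher in knock out MEFs, at 1707 in knock out and 944 in wild type MEFs (0.85) and at 168 in knock out and 96.0 in wild type MEFs (at least 1.68-fold). Vcl encodes vinculin, which strengthens the bond of talin to actin under load, and had 8462 in knock out and 7237 in wild type MEFs (0.23, or -0.17 after spike-in scaling). Its other probe set was dim and gave 429.8 in knock out and 114 in wild type MEFs (1.91). For both Vcl and Fermt2 the ratios of the dimmer probe sets thus stood above that of the main one.

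Vcl and Fermt2 are also the members of 500 or more whose upstream window holds a CArG box, the site that serum response factor binds in many genes of the actin cytoskeleton. The 250 bases before the start of each gene are shown as above, with the CArG box in capitals.
Vcl (chr14:20929148-20929397, plus strand): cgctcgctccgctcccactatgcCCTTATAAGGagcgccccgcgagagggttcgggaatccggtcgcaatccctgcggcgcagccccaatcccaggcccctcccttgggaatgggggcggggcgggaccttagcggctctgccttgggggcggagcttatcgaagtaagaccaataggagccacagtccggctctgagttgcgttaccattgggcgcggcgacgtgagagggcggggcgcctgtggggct
Fermt2 (chr14:45530066-45530315, minus strand): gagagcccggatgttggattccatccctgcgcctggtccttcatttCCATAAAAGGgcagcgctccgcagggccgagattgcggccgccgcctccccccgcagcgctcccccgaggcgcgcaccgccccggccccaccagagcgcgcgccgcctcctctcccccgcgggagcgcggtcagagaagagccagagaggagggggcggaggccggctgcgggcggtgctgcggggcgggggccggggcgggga
The box begins 227 bases before the start in Vcl and 204 bases in Fermt2. A CArG box was found in 1.47% of all windows of this length. Among members it was in at least 1 window of 3 of the 27 genes that have one. Windows are again set beside genes here. The other of the 3 was Itgb6, which was under 100 on both arrays. The match is a description of the letters and no evidence of binding. The log2 ratios of Vcl and Fermt2, 0.23 and 0.03, were within the range of the other plaque genes.

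Integrin-linked kinase, PINCH and parvin form a complex that binds beta tails and kindlin. Ilk had a signal of 3011 in knock out and 2607 in wild type MEFs (0.21, or -0.18 after spike-in scaling), on its single probe set. Parva, which encodes alpha-parvin, had 1994 in knock out and 1986 in wild type MEFs (0.01), and its other probe set, at 954 in knock out and 938 in wild type MEFs, gave 0.03. Lims1, which encodes PINCH1, had 1176 in knock out and 1244 in wild type MEFs (-0.08). On these probe sets Parva and Lims1 lay nearer to 0 than Ilk under the deposited scaling. After spike-in scaling they lay further from 0 than Ilk, at -0.39 for Parva and -0.47 for Lims1. The other probe sets of Lims1 were higher in knock out MEFs, with 1073 in knock out and 532 in wild type MEFs (1.01) and with 379 in knock out and 194 in wild type MEFs (0.96), so that the direction for Lims1 depended on the probe set.

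Of the signaling adaptors, Pxn encodes paxillin, a scaffold that focal adhesion kinase phosphorylates, and had 817 in knock out and 755 in wild type MEFs (0.11). Its next probe set gave 289 in knock out and 338 in wild type MEFs (-0.23). Bcar1 encodes p130Cas, a substrate of Src that responds to stretch, and had 989 in knock out and 918 in wild type MEFs (0.11), with 0.26 on its other probe set. Both genes were below 0 after spike-in scaling, at -0.28 each.

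Of the LIM domain proteins and tensin, which gather where actin pulls on the plaque, Tes and Tns1 went in opposite directions. Tes, which encodes testin, had a signal of 1449 in knock out and 1095 in wild type MEFs (0.40), and 1203 in knock out and 881 in wild type MEFs on its other probe set (0.45). Tns1, which encodes tensin-1 and binds both the beta tail and actin, had 1099 in knock out and 1477 in wild type MEFs (-0.43). Its dimmer probe sets lay nearer to 0, with 724 in knock out and 793 in wild type MEFs (-0.13) and with 475 in knock out and 462 in wild type MEFs (0.04). Zyx, which encodes zyxin, a protein of stress fiber repair, had 4417 in knock out and 4545 in wild type MEFs (-0.04), and its other probe set gave -0.27.

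The coreceptors were apart by 0.73 on the log2 scale. Sdc4, which encodes the heparan sulfate proteoglycan that acts with alpha 5 beta 1 on fibronectin, had a signal of 1418 in knock out and 2123 in wild type MEFs (-0.58), and its other probe set gave 845 in knock out and 1119.8 in wild type MEFs (-0.41). Cd44, the main receptor of hyaluronan, had 3704 in knock out and 3344 in wild type MEFs (0.15, or -0.24 after spike-in scaling). A second bright probe set of Cd44 gave 2715 in knock out and 3128 in wild type MEFs (-0.20). Another, with the suffix _a_at that marks probes shared by transcripts of the same gene, gave 691 in knock out and 297 in wild type MEFs (1.22). Sdc4 was thus lower on both of its probe sets, while those of Cd44 lay on both sides of 0.

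The probe sets of a gene share the RNA and the array and are not replicates, but they show how far a ratio rests on the probes. Of 18 of these genes with several probe sets over 100, 11 had all of them on the same side of 0 under the deposited scaling (8 higher, 3 lower) and 7 on both sides. The 3 lower ones were Itgb5, Sdc4 and Zyx. With signals under 100 set to 100, the log2 ratios of 1 gene were over 1 apart for 5 genes, which were Itgb1, Vcl, Cd44, Lims1 and Itga8. Neither of these counts was made over all genes, so neither sets the members apart from them. Of the 33 member probe sets that reached 500, 3 were over 2-fold higher in knock out MEFs (1 each of Itgb1, Cd44 and Lims1) and none was over 2-fold lower, where 1.66% of all 7162 probe sets with 1 symbol were higher and 0.949% lower. With a minimum of 100, and signals under 100 set to 100, 5 of 55 were over 2-fold higher, adding those of Vcl and Itga5, and none was lower, against 1.77% higher and 0.939% lower of all 17780. None of these 5 was the main probe set of its gene.

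This was set beside all genes after the values had been seen. Among genes that reached 500, and with signals under 100 set to 100, the 27 other probe sets of the members had a log2 ratio that was higher than that of the main one by a median of 0.16, as compared with 0.14 for 5129 other probe sets of all genes. It was over 0.5 higher for 9 of the 27, in 7 genes, and over 0.5 lower for none, where 21.2% and 4.74% of the other probe sets of all genes were. The upward displacement of the dimmer probe sets on the knock out array was therefore also present across all genes.

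**Figure D3:**
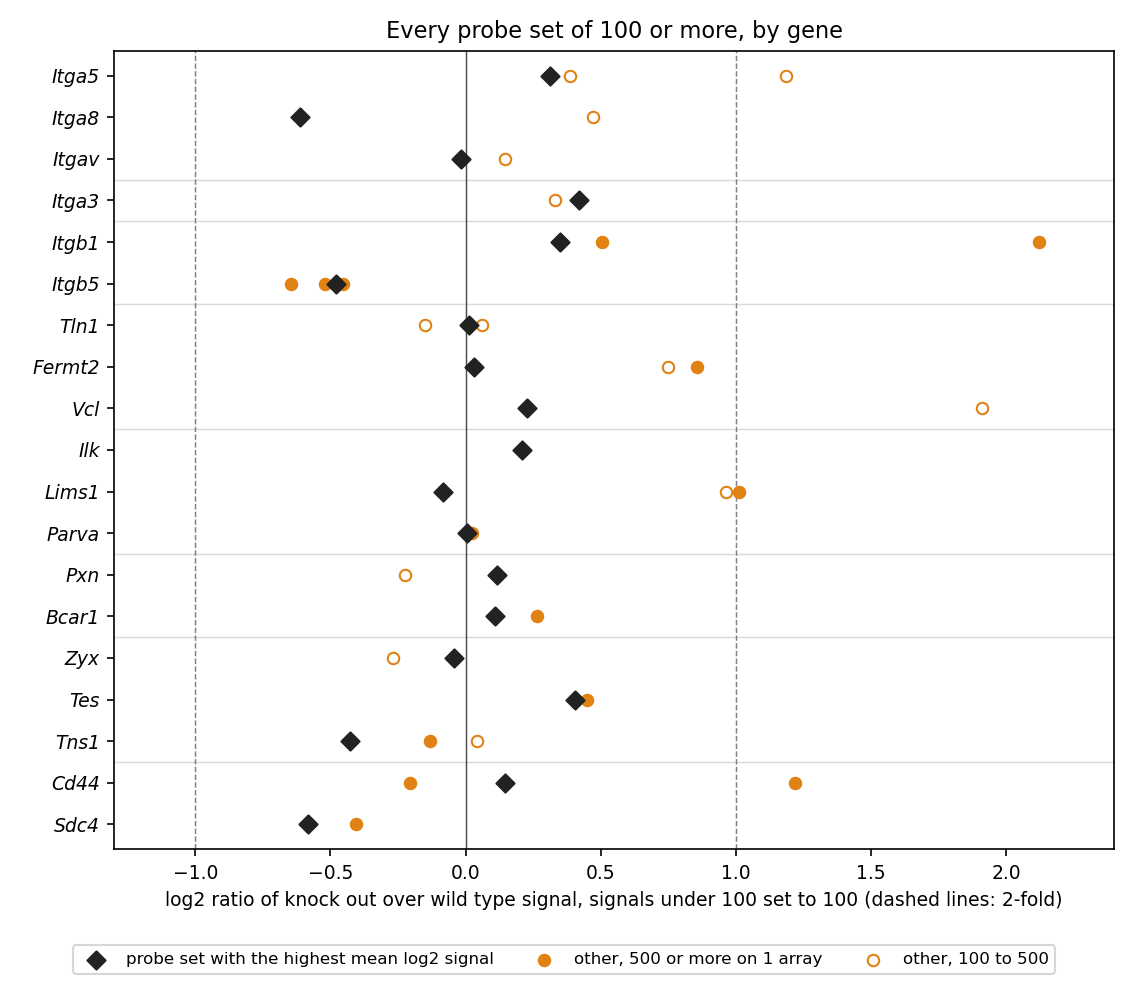
Log2 of the ratio between knock out and wild type signal (horizontal, positive where knock out is higher) for every probe set of at least 100 in the 19 genes that reached 500, with signals under 100 set to 100. Diamonds mark the main probe set of each gene, filled circles others of at least 500 and open circles others under 500. The diamonds stay within 2-fold, the probe sets of Itgb5 lie close together below 0, and those past the right dashed line belong to Itgb1, Vcl, Cd44, Itga5 and Lims1.

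Other genes of adhesion sites were counted in the same way, in lists chosen with earlier results of these data known. The shares below are therefore a description and no test of these lists. Of 66 genes that reached 500 in 4 lists of plaque proteins, adhesion signaling proteins, integrin ligands and hyaluronan related genes, 3 (4.55%) were over 2-fold apart, against 1.81% of all genes, and all 3 were among the 21 integrin ligands. The 22 plaque genes had a median log2 ratio of 0.11, and none was over 2-fold apart. Actn1, which encodes alpha-actinin, had 6576 in knock out and 5432 in wild type MEFs (0.28), and Flna, which encodes filamin A, had 5531 in knock out and 5260.0 in wild type MEFs (0.07). The 19 signaling genes had a median of 0.03 and none over 2-fold apart, and Rac1 and Cdc42, the GTPases that drive spreading, gave 0.23 and -0.06. After spike-in scaling, a shift of 0.39, the medians of both lists would lie below 0.

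The 21 integrin ligands that reached 500 had a median of -0.03, with 10 above and 11 below 0. Fn1, which encodes fibronectin, had 8319.5 in knock out and 7273 in wild type MEFs (0.19). Col1a2, a chain of collagen I, had 9997 in knock out and 8374 in wild type MEFs (0.26). Both are ligands of beta 1 integrins, and both ratios are below 0 after spike-in scaling. Of 5 laminin chains that reached 500, Lama5 was higher in knock out MEFs and 4 were lower, with log2 ratios of -0.48 for Lama2, -0.38 for Lamb1 and -0.39 for Lamc1. Lama5, a ligand of Itga3 and Itga6 dimers, had 785 in knock out and 391 in wild type MEFs (1.01), and 202 in knock out and 108 in wild type MEFs on its next probe set (0.91). Lama4 had 372 in knock out and 1113 in wild type MEFs (-1.58), with its other probe set under 100 on both arrays. Tgfb1, whose latent form is bound by alpha v integrins, had 271 in knock out and 606 in wild type MEFs (-1.16). The other probe set of Tgfb1 had 83.2 in knock out and 113 in wild type MEFs, at least 1.13-fold lower. Lama4 and Tgfb1 stayed over 2-fold lower under each of the other scalings, whereas Lama5 was within 2-fold after median centring and spike-in scaling. With the mean over probe sets, only Lama4 of these genes was over 2-fold apart.

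**Figure D4:**
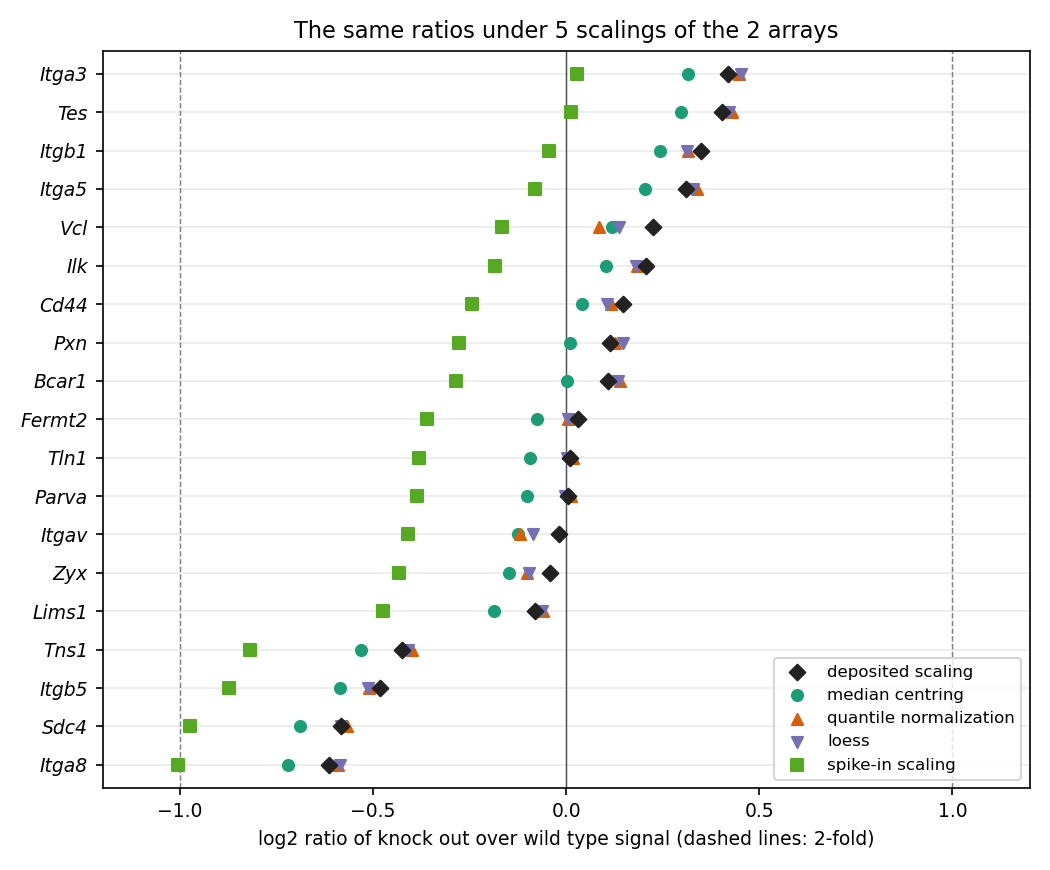
Log2 of the ratio between knock out and wild type signal (horizontal, positive where knock out is higher) for the 19 genes that reached 500, ordered by the ratio under the deposited scaling (black diamonds), with the ratio under 4 other scalings of the 2 arrays. Spike-in scaling (green squares) moves every gene down by 0.39 and puts Itga8 at -1.01, and the order of the genes from Itga3 to Itga8 changes little.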

How the data were processed

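RNA from Ebp1 knock out and wild type MEFs was hybridized to 1 array per genotype. The deposited values are linear signal intensities, 1 per probe set and array, computed by the authors with MAS5 after scaling both arrays to the same target. Detection and change calls were not used. Of 45037 probe sets that are not controls, 34945 had 1 gene symbol, 932 several and 9160 none here, and the Entrez identifiers of all 34 members carry the same symbol in the reference annotation.

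The signal in knock out MEFs was divided by that in wild type MEFs for each probe set and given as log2. A gene was counted as apart when it reached 500 on at least 1 array, after the study's minimum, and was over 2-fold apart. A fold against a signal under 100 is a bound in which 100 replaces the low signal. With 1 array per genotype there is no spread between replicates, so no test was run, and that number limits the precision. Members and lists were chosen with earlier results of these data known. Every member is named, with both signals where it reached 500. Of each other list, genes over 2-fold apart and up to 2 of the others are named, which were not always the brightest. Fn1 and Cdc42 are named, although Ccn2 and Rhoa had a higher mean log2 signal. Genes beyond that were chosen after their values were seen. Counting steps were tested on simulated data. The alternatives were other scalings of the arrays (loess fraction 0.3), treatments of low signals, minimum signals, fold thresholds and choices of probe set. Promoter windows came from RefSeq (GRCm38.p6). The work was done in Python 3.11.15 with pandas 2.3.3, numpy 2.4.6, statsmodels 0.14.6 and matplotlib 3.10.9.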

Additional observations from a re-analysis of the deposited data

How the results depend on the processing

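No member was over 2-fold apart under the deposited scaling. The count was 1 with spike-in scaling (Itga8, lower), 1 at a fold threshold of 1.5 (Itga8), 1 with the mean over probe sets (Vcl, 1.07) and 1 without probe sets of the suffixes _x_at and _s_at (Lims1, 1.01), and 0 under the other 8 alternatives. For the other adhesion genes the count of 3 (1 higher, 2 lower) was 6 with a minimum of 100 on 1 array and signals as measured (3 higher, 3 lower, of which Parvb and Ldb3 are bounds of 1.98-fold and 1.44-fold once the low signal is set to 100), 0 with at least 500 on both arrays and 0 at a fold threshold of 3. It was 2 (both lower) with median centring, spike-in scaling and 50 added to each signal. With the mean over probe sets it was 3 (2 higher, 1 lower), but the genes were Pdlim5 and Cemip (higher) and Lama4 (lower), and the value of Cemip rests on a wild type signal under 100. The median log2 ratio of the members, 0.03, was -0.08 with median centring, -0.36 with spike-in scaling and 0.18 with the mean over probe sets. The same shifts moved the median of all genes to -0.16 and -0.44 with these 2 scalings and to 0.01 with the mean. Of 216 single ratios under 8 alternatives, 21 changed sign, 11 of them with spike-in scaling, and 6 moved by over 1.5-fold. Those were Itga9 with signals raised to 100 (-0.36), Itgb1 (0.99), Lims1 (0.63) and Vcl with the mean over probe sets, and Itga5 (1.18) and Lims1 without the suffixes, the last 5 by the choice of probe set. Across all genes the count over 2-fold apart was 91 under the deposited scaling, 245 with spike-in scaling, 371 with a minimum of 100 on 1 array and signals as measured and 23 with at least 500 on both arrays, and it was 406 at a fold threshold of 1.5 and 24 at a fold threshold of 3. No paired analysis was possible because each genotype has a single array. Dim signal limits 15 of the 34 members, which stayed under 500 on both arrays.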

Other observations

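Other receptors and enzymes of the pericellular matrix were measured on the same arrays. Of the other syndecans, Sdc1 had a signal of 1826 in knock out and 1837 in wild type MEFs (log2 ratio -0.01), Sdc2 had 1332 in knock out and 1218 in wild type MEFs (0.13) and Sdc3 had 714 in knock out and 796 in wild type MEFs (-0.16), so each lay nearer to 0 than Sdc4 (-0.58). Around the Cd44 ligand hyaluronan, the synthase gene Has2 had 296 in knock out and 168 in wild type MEFs (0.82) and stayed under 500, while Cemip, whose product takes part in hyaluronan breakdown, had 1569 in knock out and 1989.7 in wild type MEFs (-0.34). Another probe set of Cemip was higher, with 124 in knock out and 18.1 in wild type MEFs, at least 1.24-fold with the low signal set to 100. Tnfaip6, which encodes a hyaluronan binding protein, had 136 in knock out and 281 in wild type MEFs (-1.04), also under 500. Has1 and Has3 were under 100 on both arrays. The collagen receptor kinases Ddr1 and Ddr2, which are not integrins, had 827 in knock out and 1126 in wild type MEFs (-0.44) and 1965 in knock out and 2190.3 in wild type MEFs (-0.16). The next probe set of each was lower too (-0.35 and -0.83), and of all 8 probe sets of Ddr1, 6 were lower and 2 were higher (0.73 and 0.45). Parvb, the relative of Parva, had 198 in knock out and 55.3 in wild type MEFs, at least 1.98-fold higher with the low signal set to 100. All of these were chosen after their values were seen.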
